A study of Mus musculus with 6 samples.

Results

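The expression of 10 genes with a place in Wnt signalling was examined in organoids of mouse pancreatic tumours: the R-spondin receptors Lgr4 and Lgr5, the feedback regulators Rnf43, Znrf3, Axin2 and Nkd1, the transcription factors Sp5 and Tcf7, the kinase Cdk14 and its cyclin Ccny. They were taken by symbol from the deposited series tables and are 10 of the 53379 genes annotated there. Low counts kept Nkd1 out of the test, so that 9 of the 10 were among the 14537 genes tested. Cdk14 was chosen by its higher counts in the LOH libraries of this same contrast, and its values are therefore given as a description, with no test. The other 9 genes were listed with earlier results of these data known.

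The tumours came from engineered mice of the strain C57/Bl6 that carry Trp53LSLR172H/+ and Pdx1-Cre: a mutant Trp53 (R172H) behind a stop cassette that Cre, driven by the pancreatic Pdx1 promoter, removes. Organoids of 3 lines, numbered 6, 23 and 34, each gave 1 library labelled R172H/+ (heterozygous, n = 3) and 1 labelled R172H/LOH (n = 3), where LOH is loss of heterozygosity and the genotype entry reads Trp53LSLR172H/-. All cultures, the heterozygous ones included, thus carried mutant Trp53 and Cre, and grew as epithelial organoids inside domes of Matrigel, a basement membrane gel. They were fed mouse complete organoid medium, whose composition is not given in the labels. The descriptions of the LOH libraries end in the suffix "Nut", which those of the heterozygous libraries lack and whose meaning is not stated, so it and the genotype cannot be told apart. No label says that the 2 libraries of a line or the 3 lines were grown or prepared separately, and no label gives a batch or a date. The p-values measure the spread between these libraries only.

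Wnt ligands bind Frizzled receptors and the co-receptors Lrp5 and Lrp6, which stops the destruction complex from degrading beta-catenin, and beta-catenin then works with TCF/LEF factors on target genes. Several of those targets feed back: Axin2 rebuilds the destruction complex, Rnf43 and Znrf3 are membrane ubiquitin ligases that remove Frizzled from the surface, and R-spondins, bound by Lgr4 or Lgr5, clear these ligases. Cdk14 with cyclin Y (Ccny) phosphorylates Lrp6 at the membrane and so primes the co-receptor for signalling. In the pancreas the pathway acts in development, and a subset of pancreatic ductal tumours, with loss of RNF43, depends on Wnt ligands.

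The libraries held 13680458 to 27917277 expected counts each, and the 10 genes together took 3439 to 8442 of them. A count of 3 corresponded to between 0.1001 and 0.223 CPM (read counts scaled to a common library size by the trimmed mean of M values, TMM). Genes of the protein-coding class took 67.9 to 73.3% of all counts in heterozygous and 61.4 to 67.2% in LOH libraries, without overlap, and their part in the results below was not tested. Trp53 itself had 76.3 to 86.5 CPM in the heterozygous libraries and 47.4 to 73.5 CPM in the LOH libraries (log2 fold change -0.47, SE 0.22, edgeR adjusted p = 0.227); gene counts do not show which allele they come from. All 10 epithelial markers (Epcam, keratins and others) were tested and none passed, with summed levels of 4031 to 4654 TPM (transcript abundance per length, as a part of all transcripts) in the heterozygous and 3201 to 6148 in the LOH libraries. None of the 10 fibroblast, 6 endothelial, 8 acinar or 7 endocrine markers had enough counts to be tested, and none exceeded 0.55 TPM in any library. Their summed levels were low throughout but differed between groups for the fibroblast list (0.05 to 0.07 TPM in the heterozygous and 0.16 to 0.50 TPM in the LOH libraries) and the acinar list (0.04 to 0.10 and 0.16 to 0.35 TPM). Of 8 leukocyte markers only Cd68 was tested (log2 fold change 2.21, edgeR adjusted p = 0.0713), the list summed to 1.76 to 2.25 TPM in the heterozygous and 3.45 to 10.8 TPM in the LOH libraries, and the pan-leukocyte gene Ptprc did not exceed 0.05 TPM. Laptm5 of the same list had 0 counts in every heterozygous library and 16, 2 and 1 in the LOH libraries. The remaining leukocyte markers, Ptprc included, overlapped between the groups.

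Besides Cdk14, which stood highest above its heterozygous level, the genes did not lie on 1 side. Lgr5 and Axin2 had higher and Znrf3 lower CPM in every LOH library than in any heterozygous library, and the other 5 tested genes overlapped between the groups. No gene of the 8 tested other than Cdk14 passed edgeR's quasi-likelihood test at a Benjamini-Hochberg adjusted p of 0.05 over all genes, where 5.21% of genes passed (3.55% higher and 1.66% lower in LOH, or 516 and 241 genes; on log2(TPM + 0.1), 267 of 1753 were higher). Of the 8, 3 (Lgr5, Axin2 and Znrf3) had an unadjusted p under 0.05, against 25.3% of all genes tested, and the same 3 were those whose groups did not overlap, against 32.8% of all genes (16.4% with LOH higher and 16.5% with LOH lower). They were also the 3 that kept 1 direction in all lines, as did 44.5% of all genes. With DESeq2, 2 of the 8 (Lgr5 and Znrf3) passed, against 15.8% of genes (9.6% higher, 6.22% lower). Without the LOH library of line 6 these 2 also passed in edgeR, a fit in which 16.2% of all genes did. A block on the organoid line left none, where 1.22% of all genes were higher and 0.248% lower. The median log2 fold change of the 8 was 0.15 (range -0.80 to 1.59), beside 0.06 for all genes tested (on log2(TPM + 0.1), -0.26 beside -0.42), and 6 of the 8 were above 0, as were 54.0% of all genes.

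**Figure D1:**
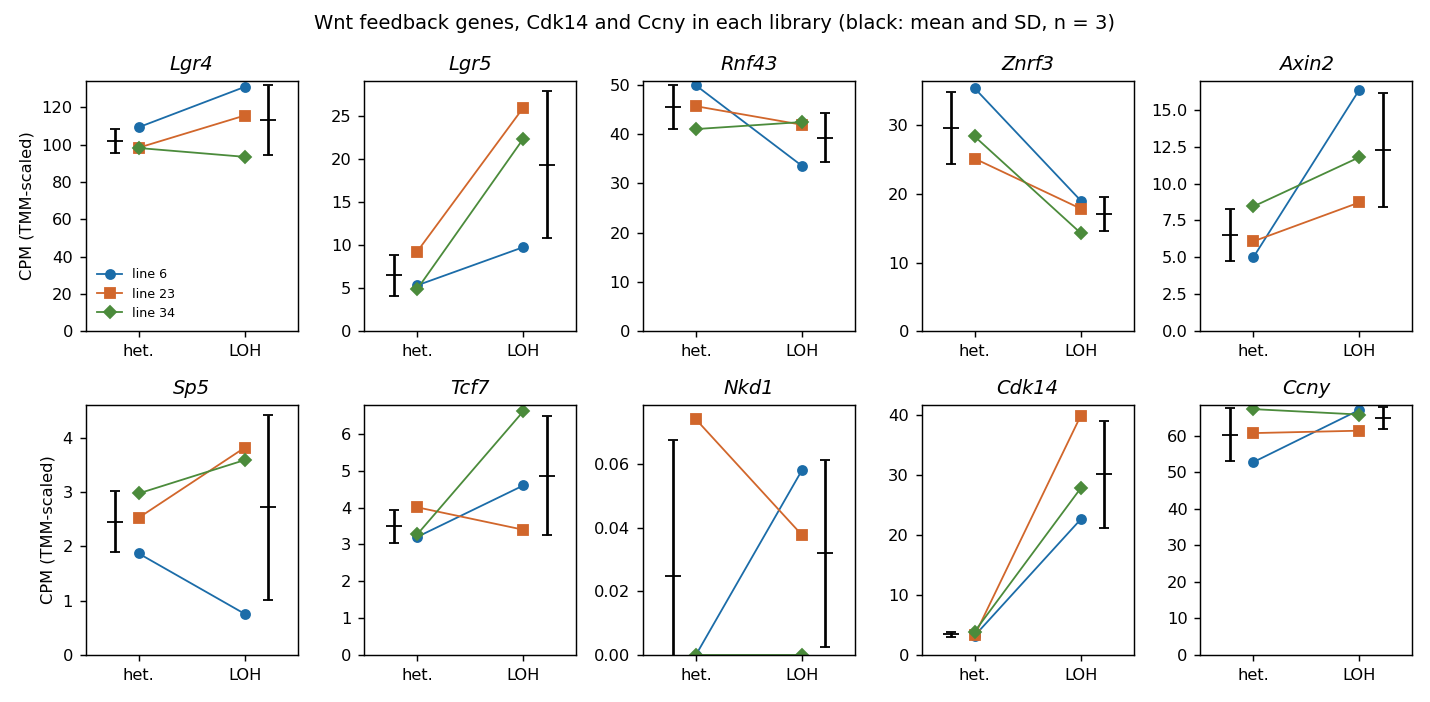
CPM of the 10 genes in each library, with the heterozygous (het.) and LOH library of an organoid line joined by a line, and the mean and SD of each group (n = 3) in black. Cdk14 lies between 3.20 and 3.91 CPM in the heterozygous and between 22.6 and 39.9 CPM in the LOH libraries; Nkd1, drawn on its own scale, never exceeds 1 count.

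Lgr4 and Lgr5 are membrane receptors for R-spondins, and Lgr5 also marks stem cells in several epithelia. Lgr4 (ENSMUSG00000050199.13, chr2:109917647-110014257, plus strand, GRCm38) was the most abundant of the 10 genes, with 109.3, 98.4 and 98.2 CPM in heterozygous lines 6, 23 and 34 (the order used throughout) and 131.0, 115.6 and 93.5 CPM in the LOH libraries. Its groups overlapped, and the LOH library of line 34 was the lowest of all 6. The means were 101.98 ± 6.36 and 113.4 ± 18.8 CPM (SD, n = 3 each), and the difference was within the spread (log2 fold change 0.15, SE 0.19, edgeR adjusted p = 0.638; negative in TPM and without the LOH library of line 6).

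Lgr5 (ENSMUSG00000020140.15, chr10:115450311-115587780, minus strand) had 5.34, 9.27 and 4.91 CPM in the heterozygous libraries and 9.78, 26.0 and 22.4 CPM in the LOH libraries. Every LOH library lay above every heterozygous one in CPM, but the LOH library of line 6 stood only just above the heterozygous library of line 23. The group means were 6.51 ± 2.41 and 19.4 ± 8.52 CPM (SD, n = 3 each), and the log2 fold change of 1.59 (SE 0.43) missed the threshold in edgeR (adjusted p = 0.0805, unadjusted p = 0.00794). DESeq2 gave 1.57 with an adjusted p of 0.00742. Without the LOH library of line 6 edgeR gave 1.87 with an adjusted p of 0.0213; a block on organoid line gave an adjusted p of 0.107. In TPM the groups overlapped (2.06 in the LOH library of line 6, 2.27 in the heterozygous library of line 23), and limma gave 0.93 on log2(TPM + 0.1) and 0.70 on log2(TPM + 1), with adjusted p-values of 0.143 and 0.135; these are 1.35 and 1.05 above the median of all genes on those scales. Within lines the log2 ratio of LOH to heterozygous was 0.86, 1.48 and 2.17 in lines 6, 23 and 34. In TPM, which is per length, Lgr4 exceeded Lgr5 17.3-, 9.41- and 15.6-fold in the heterozygous libraries and 12.3-, 4.09- and 3.997-fold in the LOH libraries, so that the 2 LOH libraries of lines 23 and 34 had the smallest excess and the LOH library of line 6 fell among the heterozygous ones. An annotated gene on the opposite strand of Lgr5 had 0 counts.

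Rnf43 and Znrf3, related RING-type ubiquitin ligases with overlapping roles in removing Frizzled receptors, did not have the same pattern in CPM. The difference between them was not tested. Rnf43 (ENSMUSG00000034177.15, chr11:87662722-87735539, plus strand) had 49.8, 45.6 and 41.0 CPM in the heterozygous and 33.5, 41.9 and 42.4 CPM in the LOH libraries. These ranges overlapped, and the lowest value was that of the LOH library of line 6. The means were 45.5 ± 4.43 and 39.3 ± 4.98 CPM (SD, n = 3 each; log2 fold change -0.21, SE 0.19, edgeR adjusted p = 0.505). Up to 1.41 CPM were counted for a gene overlapping it on the same strand. In TPM, Rnf43 had 20.2, 13.8 and 13.1 in the heterozygous and 9.49, 11.1 and 9.92 in the LOH libraries, lower without overlap. On log2(TPM + 0.1) its difference was -0.60, which is -0.18 relative to the median of all genes on that scale.

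Znrf3 (ENSMUSG00000041961.14, chr11:5276324-5444847, minus strand) had 35.4, 25.2 and 28.4 CPM in the heterozygous and 19.0, 17.9 and 14.3 CPM in the LOH libraries. All LOH values lay below all heterozygous ones, and the within-line log2 ratios were -0.89, -0.49 and -0.98. The means were 29.6 ± 5.24 and 17.1 ± 2.47 CPM (SD, n = 3 each). This difference (log2 fold change -0.80, SE 0.22) had an adjusted p of 0.0796 in edgeR and of 0.0171 in DESeq2 (log2 fold change -0.81). Limma on log2(TPM + 1) and log2(TPM + 0.1) put it just past the threshold (adjusted p = 0.0486 and 0.0499), as did edgeR without the LOH library of line 6 (log2 fold change -0.93, adjusted p = 0.0482), whereas the block on organoid line gave 0.172. The 2 ligases together summed to 28.4, 18.6 and 18.9 TPM in the heterozygous libraries and to 12.8, 13.9 and 12.1 TPM in the LOH libraries. These sums did not overlap; on the TPM scale, however, the median of all genes was lower in the LOH libraries by 0.42 in log2(TPM + 0.1).

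Axin2, a scaffold of the destruction complex and a widely used readout of beta-catenin activity, had 5.004, 6.08 and 8.45 CPM in the heterozygous libraries and 16.4, 8.72 and 11.8 CPM in the LOH ones (ENSMUSG00000000142.15, chr11:108920349-108950783, plus strand). The groups did not overlap, but the highest heterozygous value (line 34) and the lowest LOH value (line 23) were close. The means were 6.51 ± 1.76 and 12.3 ± 3.84 CPM (SD, n = 3 each), and the log2 fold change of 0.91 (SE 0.33) did not pass (edgeR adjusted p = 0.144, unadjusted p = 0.0273; DESeq2 adjusted p = 0.0951). The within-line log2 ratio was 1.69 in line 6 and 0.51 and 0.48 in lines 23 and 34, and without both libraries of line 6 the fold change was 0.46. On the log2(TPM + 0.1) scale the difference was 0.19, which is 0.61 above the median of all genes on that scale, and the TPM ranges overlapped. Line 6 thus had the highest ratio for Axin2 and the lowest for Lgr5.

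Nkd1, a cytoplasmic antagonist that binds Dishevelled, had 0 or 1 count in each of the 6 libraries (ENSMUSG00000031661.12, chr8:88521354-88594884, plus strand). Both groups lay under the floor of 3 counts, so that Nkd1 RNA was not detectable at this depth and no fold is given.

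Sp5 and Tcf7 are transcription factors downstream of beta-catenin, Sp5 as a repressing zinc finger protein and Tcf7 as one of the TCF/LEF factors. Sp5 (ENSMUSG00000075304.2, chr2:70474923-70477729, plus strand) had 1.87, 2.52 and 2.97 CPM in the heterozygous and 0.757, 3.81 and 3.59 CPM in the LOH libraries. Line 6 was lower and lines 23 and 34 were higher in the LOH library, with within-line log2 ratios of -1.21, 0.58 and 0.26. The log2 fold change of 0.15 (SE 0.59) did not pass (edgeR adjusted p = 0.894) and was negative with the block, in TPM, without the LOH library of line 23 or 34, without the heterozygous library of line 6 and without line 23. The value of the LOH library of line 6 rests on 13 counts.

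Tcf7 (ENSMUSG00000000782.15, chr11:52252371-52283014, minus strand) had 3.20, 4.01 and 3.27 CPM in the heterozygous and 4.60, 3.40 and 6.61 CPM in the LOH libraries. Here line 23 was the exception, with a within-line log2 ratio of -0.23 against 0.51 in line 6 and 0.996 in line 34. The groups overlapped and the difference did not pass (log2 fold change 0.48, SE 0.34, edgeR adjusted p = 0.413).

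**Figure D2:**
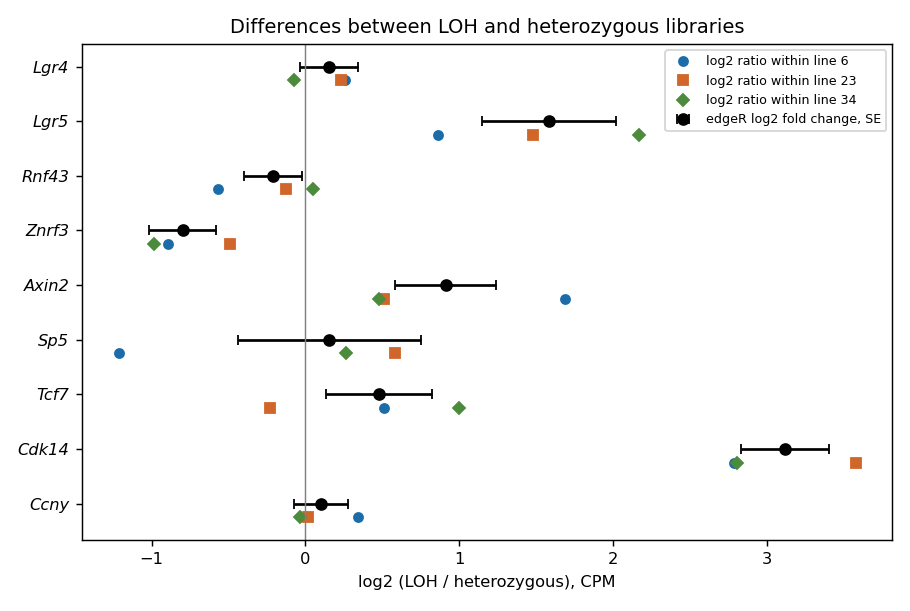
Log2 fold change of LOH over heterozygous libraries for the 9 genes tested, with the SE of the edgeR fit (black), and the log2 ratio of CPM within each organoid line (coloured). Lgr5, Axin2 and Cdk14 lie right of 0 and Znrf3 left of 0 in all 3 lines; Lgr4, Rnf43, Sp5, Tcf7 and Ccny have lines on both sides.

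Since beta-catenin reaches its targets through TCF/LEF factors, the 250 bases before the RefSeq starts of these genes were searched for the TCF/LEF core, taken as CTTTG followed by 2 letters that are each A or T, on either strand. RefSeq promoter windows (GRCm38.p6) were at hand for 7 of the 10 genes (9 windows), not including Lgr5 and Znrf3. Matches were present for 2 of the 7 genes, Sp5 with 2 and Cdk14 with 1; over all RefSeq windows of this length 4874 of 32851, or 14.8%, held at least 1. Both stretches are shown because they place these matches relative to the genes whose values are given here, with the matches in capitals and the gene's own strand printed 5′ to 3′. The Sp5 stretch is chr2:70474681-70474845, plus strand, with matches 222 to 216 and 104 to 98 bases before the start, and the Cdk14 stretch is chr5:5380398-5380444, minus strand, with its match 173 to 167 bases before the RefSeq start, which lies inside the gene span given below and not at its first base.
Sp5: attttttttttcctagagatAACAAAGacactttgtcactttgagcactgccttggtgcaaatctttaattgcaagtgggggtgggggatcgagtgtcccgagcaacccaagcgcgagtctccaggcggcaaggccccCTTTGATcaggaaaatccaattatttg
Cdk14: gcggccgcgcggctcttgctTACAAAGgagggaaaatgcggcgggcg
A match of these letters is a description of the sequence only; Sp5 did not pass the test and Cdk14 was not tested.

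Cdk14 belongs to the TAIRE kinases, cyclin-dependent kinases named for a motif in the helix that binds the cyclin. Cdk14 and Cdk15 carry the PFTAIRE and Cdk16, Cdk17 and Cdk18 the PCTAIRE form. The coding sequence around this motif is shown to set Cdk14 beside the kinases whose counts are compared with it below, from GENCODE release 21 transcripts, in windows of 57 bases with the 21 bases of the motif in capitals.
Cdk14-201: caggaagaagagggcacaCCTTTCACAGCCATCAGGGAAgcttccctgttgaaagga
Cdk15-201: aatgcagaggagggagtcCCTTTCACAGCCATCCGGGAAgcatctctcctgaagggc
Cdk16-201: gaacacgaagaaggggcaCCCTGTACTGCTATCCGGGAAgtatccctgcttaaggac
Cdk17-201: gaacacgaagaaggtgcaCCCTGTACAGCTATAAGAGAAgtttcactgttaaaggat
Cdk18-201: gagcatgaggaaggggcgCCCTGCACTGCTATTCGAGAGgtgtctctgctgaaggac
Over the window Cdk15 differed from Cdk14 at 15 bases, Cdk16 at 20, Cdk17 at 19 and Cdk18 at 23, and within the motif at 1, 6, 6 and 8 bases.

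Cdk14 (ENSMUSG00000028926.15, chr5:4803391-5420312, minus strand) had 96, 44 and 117 expected counts in heterozygous lines 6, 23 and 34 and 389, 1058 and 598 in the LOH libraries. Scaled, this was 3.20, 3.26 and 3.91 CPM against 22.6, 39.9 and 27.8 CPM, or 3.46 ± 0.389 and 30.1 ± 8.87 CPM (SD, n = 3 each). The LOH mean was 8.72 times the heterozygous one, with a fitted log2 fold change of 3.12 and within-line log2 ratios of 2.79, 3.58 and 2.81. The lowest LOH library was thus well above the highest heterozygous one, and line 23 held both the highest level and the highest ratio. Over 18 other ways of scaling, filtering, testing or leaving out libraries the log2 fold change lay between 2.07, on log2(TPM + 1), and 3.27. It overlaps 11 other annotated genes, all on its own strand and none above 0.415 CPM in any library. These values chose Cdk14 and carry no test.

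**Figure D3:**
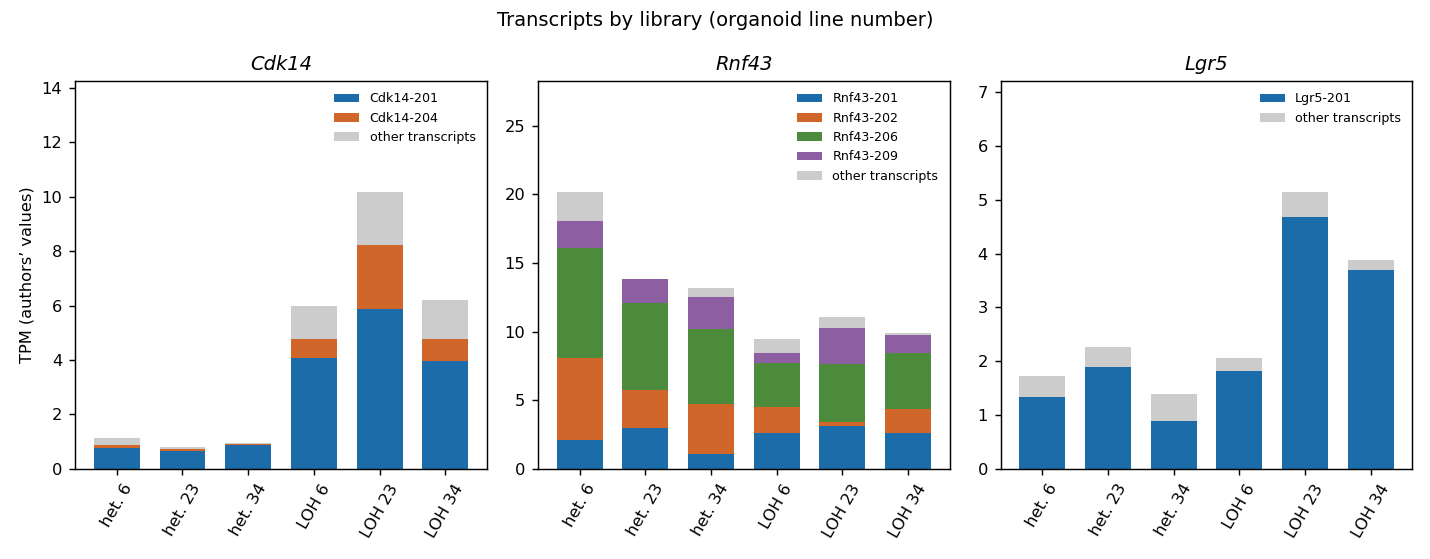
TPM of the transcripts of Cdk14, Rnf43 and Lgr5 in each library, stacked, with transcripts of under 10% mean share joined as other transcripts. In Cdk14 both named transcripts are higher in every LOH library; in Rnf43 the retained-intron transcript Rnf43-206 is the largest part of every library's bar.

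Cyclin Y, the partner that Cdk14 needs for its activity at the membrane, overlapped between the groups. Ccny (ENSMUSG00000024286.7, chromosome 18 at 9312304 to 9450154, minus strand) had 52.8, 60.8 and 67.3 CPM in the heterozygous and 67.1, 61.4 and 65.8 CPM in the LOH libraries. Group means were 60.3 ± 7.27 and 64.8 ± 2.99 CPM (SD, n = 3 each; log2 fold change 0.10, SE 0.17, edgeR adjusted p = 0.739). The within-line log2 ratio was 0.35 in line 6 and 0.02 and -0.03 in lines 23 and 34, and the fold change was negative in TPM and without the heterozygous library of line 6. Per length, Ccny exceeded Cdk14 by 15.6-, 19.9- and 19.9-fold in TPM in the heterozygous libraries and by 2.74-, 1.34- and 2.16-fold in the LOH libraries. Cyclin Y RNA was therefore above Cdk14 RNA in all 6 libraries, and the excess was smallest in the LOH library of line 23.

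The remaining kinases of the family and the cyclin Y-like Ccnyl1 and the adaptor Caprin2 formed a list of 6 genes, of which 5 were tested and none passed. All 5 had log2 fold changes below 0 (median -0.40, against 0.06 for all genes). Ccnyl1 had 22.2 ± 1.98 CPM in the heterozygous and 14.1 ± 1.71 CPM in the LOH libraries (SD, n = 3 each), without overlap, and missed the threshold in edgeR (log2 fold change -0.66, SE 0.20, adjusted p = 0.0967) but not in DESeq2 (adjusted p = 0.0320). The log2 fold changes of Cdk16, Cdk17, Cdk18 and Caprin2 were -0.16, -0.51, -0.40 and -0.15, with edgeR adjusted p-values of 0.654, 0.489, 0.460 and 0.923. Cdk15 had at most 1 count in any library. The difference between these genes and Cdk14 was not tested.

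Levels of different genes were compared in TPM only. By the mean over the 6 libraries the order was Lgr4 (22.5 TPM), Ccny (16.1), Rnf43 (12.9), Znrf3 (4.49), Cdk14 (4.22), Axin2 (3.15), Lgr5 (2.75), Tcf7 (1.88), Sp5 (1.29) and Nkd1 (0.01). Only Rnf43 and Znrf3, and Sp5 and Nkd1, were neighbours whose ranges over the libraries did not overlap. Among the heterozygous libraries Cdk14 ranked 9 and Znrf3 ranked 4 by mean TPM, and among the LOH libraries Cdk14 ranked 4 and Znrf3 ranked 7. When levels were scaled over protein-coding genes only, Cdk14 and Znrf3 exchanged places in the overall order.

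Transcript shares, the part of a gene's TPM assigned to 1 transcript, were compared for 14 transcripts of these genes other than Cdk14. With 3 libraries a group the exact two-sided permutation test could not go below 0.1, and 3 transcripts reached that value, with a Benjamini-Hochberg adjusted p of 0.4 over the 14. Lgr5-201, the main Lgr5 transcript, took 78.4, 83.3 and 63.1% of Lgr5 in the heterozygous and 88.8, 90.9 and 95.1% in the LOH libraries. Rnf43-201 took 10.4, 21.6 and 8.37% against 27.7, 28.3 and 26.1%. Znrf3-201 took 55.7, 50.9 and 50.7% against 49.5, 50.0 and 47.4%. In Rnf43 the transcript Rnf43-206, annotated as a retained intron and not as coding, took a mean of 40.2% of the TPM, so that gene counts of Rnf43 are not all counts of coding RNA.

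Cdk14 has 15 annotated transcripts, of which Cdk14-201 held 0.78, 0.65 and 0.86 TPM in the heterozygous and 4.07, 5.87 and 3.97 TPM in the LOH libraries. Its share of TPM was 79.9 ± 10.8% and 63.1 ± 5.15% (SD, n = 3 each), but its share of expected counts was 91.7 ± 3.64% and 84.9 ± 4.63%, with overlap between the groups. The shorter Cdk14-204 held 0.09, 0.07 and 0.04 TPM against 0.71, 2.34 and 0.80 TPM, and its share was 6.94 ± 2.39% and 15.9 ± 6.16%. At 1.37 to 2.92 expected counts in the heterozygous libraries, Cdk14-204 was under the floor of 3 counts there, and its share rests on few reads. Both Cdk14 transcripts were higher in every LOH library; Sp5 and Ccny have 1 annotated transcript each.

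The genes on both sides of Cdk14 were described next. Of the 10 tested neighbours, 5 on each side over 1821 kb of chromosome 5, only Fzd1, which encodes a Frizzled receptor and lies 45 kb from Cdk14, passed the test; 59 of the other 1018 tested genes of the chromosome passed. Of the 10, 8 had log2 fold changes above 0, as had 585 of those 1018 (medians 0.66 and 0.10). Among these 8, Gm43031 is annotated inside Akap9 on the same strand, so these 2 are not separate neighbours. A difference between the region and the chromosome was not tested. Cldn12, a claudin gene 69 kb away on the other side, had a log2 fold change of -0.11, and Gtpbp10 of -0.28. Akap9 (2.03, edgeR adjusted p = 0.189), Gm43031 (1.60), Cfap69 (1.34), Steap2 (0.81), Cyp51 (0.50), Steap1 (0.40) and Mterf1b (0.09) did not pass. In Akap9 line 6 went the other way, with a within-line log2 ratio of -1.06 beside 4.202 and 2.96 in lines 23 and 34. The ratio of line 6 was also below 0 in Gm43031, Cfap69, Steap2 and Mterf1b. None of the 10 had a log2 fold change as large as that of Cdk14, which was chosen for its rise.

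**Figure D4:**
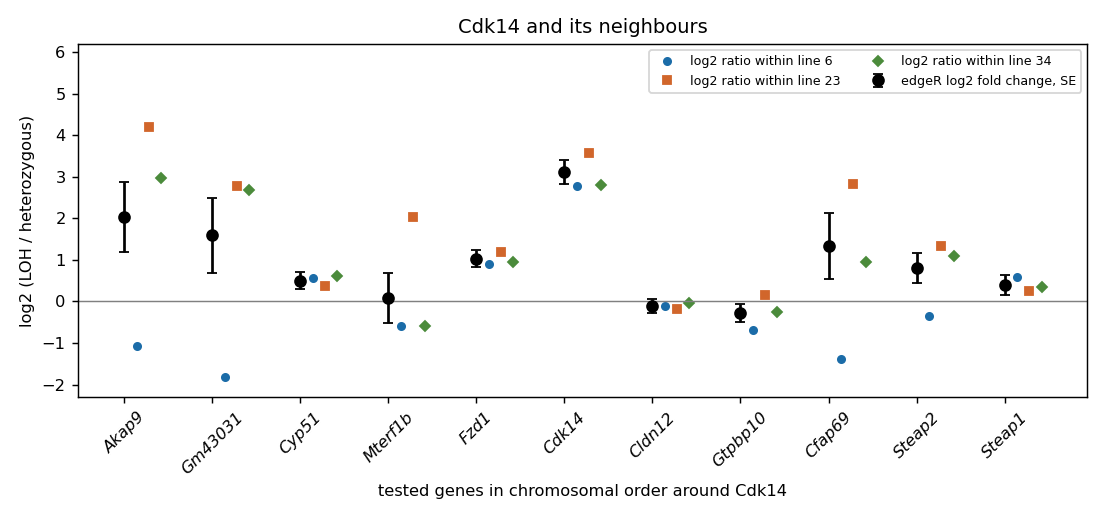
Log2 fold change and SE of Cdk14 and the 5 nearest tested genes on each side, in chromosomal order (black), with the log2 ratio within each organoid line (coloured). Cdk14 stands at 3.12 between Fzd1 at 1.03 and Cldn12 at -0.11, and the 3 lines of Cdk14 lie at 2.79, 3.58 and 2.81.

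Fzd1 (chr5:4753839-4758035, minus strand) rose in the LOH libraries, where it had 13.4 ± 0.947 CPM beside 6.56 ± 0.237 CPM in the heterozygous ones (SD, n = 3 each; log2 fold change 1.03, SE 0.21, edgeR adjusted p = 0.0399). The within-line log2 ratios were 0.90, 1.19 and 0.96. The call was lost with the block on organoid line (adjusted p = 0.134), without the filter on low counts (0.0775), in limma on log2(TPM + 1) and log2(TPM + 0.1) (0.168 and 0.183), without the LOH library of line 23 (0.0731) and without any 1 of the 3 heterozygous libraries (0.163 to 0.215).

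The wider pathway was followed in 8 lists of 111 genes in all, the TAIRE list included, of which 70 were tested. In all 4 were called higher (Fzd1, Ror2, Notum and Ephb2), none were called lower and 66 did not pass, a share of 5.71% called beside 5.21% of all genes. Notum and Ror2 passed the filter on low counts through their LOH libraries only. When at least 10 counts were asked of every library both dropped out and 2 genes were called, where 5.26% of all genes were. The 70 had a median log2 fold change of 0.17, beside 0.06 for all genes, and 43 of them were above 0. No call held with the organoid line as a block, where Wnt10a alone passed, against 1.47% of all genes. DESeq2 called 13 of the 70, against 15.8% of all genes. The count was 8 without the LOH library of line 6, 7 without that of line 34 and 2 without that of line 23, fits in which 16.2, 5.27 and 3.02% of all genes were called. It was 0 without any 1 heterozygous library or without line 23 or line 34, as was the count over all genes. Leaving out any whole line ended the calls of Fzd1, Ror2 and Ephb2, and leaving out line 23 or line 34 that of Notum.

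**Figure D5:**
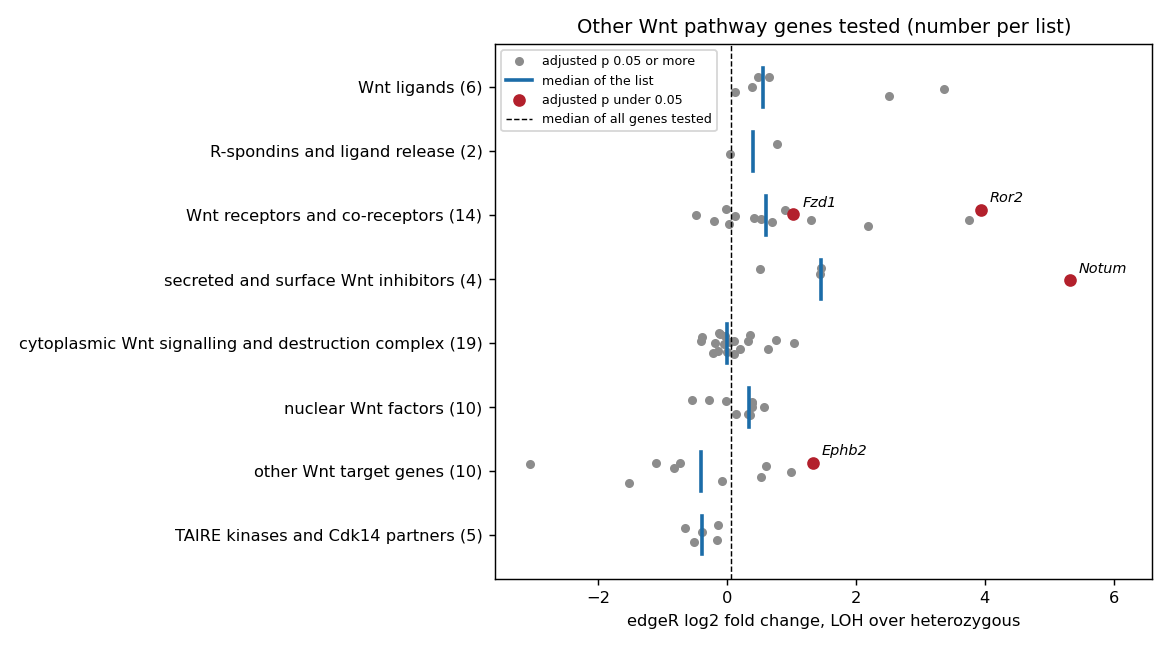
EdgeR log2 fold change of the tested genes of each Wnt pathway list (points; red where the adjusted p is under 0.05), the median of each list (blue bar) and of all genes tested (dashed line). The cytoplasmic list lies around 0, the 5 genes of the TAIRE list lie below 0, and Fzd1, Ror2, Notum and Ephb2 are the red points.

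Among ligands, 6 of 19 Wnt genes were tested and none passed, all 6 with log2 fold changes above 0 (median 0.56). That of Wnt7b, however, was negative in TPM, with the block and without the LOH library of line 34. Within lines Wnt2b, Wnt4, Wnt7a and Wnt7b had log2 ratios on both sides of 0, and only Wnt5a and Wnt10a were higher in all 3. Over the 18 alternatives the list median lay between -0.12 and 0.96, and that of all genes between -0.42 and 0.15. Wnt7b was the most abundant, with 128.0 ± 15.8 and 140.1 ± 105.9 CPM (SD, n = 3 each; log2 fold change 0.13, edgeR adjusted p = 0.896), and its LOH libraries ranged from 55.9 CPM in line 6 to 259.002 CPM in line 34. Wnt10a had 0.200, 0.890 and 4.07 CPM in the heterozygous and 2.39, 20.4 and 31.7 CPM in the LOH libraries. Its groups overlapped, and its level differed between lines, but within every line it was higher in the LOH library. The edgeR log2 fold change was 3.37 (adjusted p = 0.140), and with the block the edgeR adjusted p was 0.0341. The heterozygous libraries of Wnt10a alone, with 6, 12 and 122 counts, did not meet the filter on low counts. Its call with the block is therefore given as a description and not as support for a rise. Of the genes for R-spondins and ligand release, Rspo1 to Rspo4 had at most 3 counts in every library, and Wls, which carries Wnt proteins to the surface, did not pass (log2 fold change 0.04, edgeR adjusted p = 0.960). RNA for the ligands of Lgr4 and Lgr5 was therefore not detectable in these epithelial cultures at this depth.

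Receptors and co-receptors had 14 of 16 genes tested, 2 that were called higher and a median log2 fold change of 0.61. Ror2, a receptor tyrosine kinase for Wnt ligands, had 0.70, 0.59 and 0.33 CPM in the heterozygous and 9.49, 14.01 and 1.54 CPM in the LOH libraries. It was lowest among the LOH libraries in line 34, and its fitted log2 difference was 3.94 (SE 0.83). Ror2 passed the filter on low counts through its LOH libraries only, so its call is given as a description and not as support for a rise. Its edgeR adjusted p was 0.0443, and became 0.0616 with the block and 0.0892 without the LOH library of line 23, where the difference was 3.34. Without the LOH library of line 34 it was 4.43. Without any 1 heterozygous library Ror2 did not pass either (0.159 to 0.198). Lrp5, the most abundant of the list, did not pass (log2 fold change 0.42, edgeR adjusted p = 0.306).

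Of 17 secreted and surface inhibitors, 11 had at most 3 counts in every library and 4 were tested, with a median log2 fold change of 1.45. Over the 18 alternatives this median lay between 0.10 and 1.97. When at least 10 counts were asked of every library, Kremen1 alone was left, at 0.54. The median of the list is therefore a description that depends on the filter. Notum, a secreted enzyme that removes the lipid from Wnt proteins and is itself a feedback target, was the one called higher (edgeR adjusted p = 0.0225, or 0.0609 with the block). It had 2, 0 and 1 counts in the heterozygous and 17, 34 and 66 in the LOH libraries, and so passed the filter on low counts only through the LOH libraries. Its call is therefore given as a description and not as support for a rise. The Notum level was 43.9 times higher over the summed counts, with an exact 95% interval of 14.7 to 216. That interval takes reads and not libraries as the unit and covers counting error only. The fitted log2 fold change of 5.32 depends on the prior count, and was 4.67 without the LOH library of line 34, 5.99 without the heterozygous library of line 6 and between 4.55 and 6.27 over all libraries and lines left out. The call was lost without any 1 heterozygous library (0.101 to 0.142). Kremen1, the most abundant inhibitor, did not pass (log2 fold change 0.52, edgeR adjusted p = 0.161).

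Over the cytoplasmic, nuclear and other target lists 1 gene passed. Of 20 genes of the cytoplasmic list 19 were tested and none passed (median log2 fold change -0.005), and Ctnnb1, which encodes beta-catenin, had 948.8 ± 76.1 and 925.3 ± 302.02 CPM (SD, n = 3 each; log2 fold change -0.04, edgeR adjusted p = 0.947). None of 10 tested nuclear factors passed (median 0.34), with Chd8 the most abundant (log2 fold change 0.14, edgeR adjusted p = 0.738). Of 10 tested other target genes 1 rose and the median log2 fold change was -0.40. That gene was Ephb2, an ephrin receptor of the intestinal crypt, with 21.6 ± 5.88 and 54.2 ± 11.8 CPM (SD, n = 3 each; log2 fold change 1.33, SE 0.27, edgeR adjusted p = 0.0393; 0.0671 with the block, in limma on log2(TPM + 1) and log2(TPM + 0.1) 0.0718 and 0.0709, 0.0768 without the LOH library of line 23, 0.0550 without that of line 34, and 0.0983 to 0.199 without any 1 heterozygous library). Ccnd1, the cyclin D1 gene and the most abundant of these targets, had 916.8 ± 32.7 and 424.98 ± 180.7 CPM, without overlap. It did not pass in edgeR (log2 fold change -1.11, SE 0.31, adjusted p = 0.0818) and passed in DESeq2 (adjusted p = 0.0111) and in edgeR without the LOH library of line 34 (0.0265). Of the 10 tested other targets, 2 were higher and 3 lower in all 3 LOH libraries than in any heterozygous one, where 16.4% and 16.5% of all genes were.

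Finally, the genes with a pattern most like that of Cdk14 were sought by the root mean square difference of log2 CPM, each gene centred on its own mean, over the 6 libraries and 12677 tested genes of at least 1 CPM on average. The nearest were Ptprr (0.251), which encodes a tyrosine phosphatase, Oasl1 (0.294), Lims2 (0.311), Kif5c (0.312), a kinesin gene, and Avil (0.321), which encodes the actin-binding protein advillin. Ptprr had 2.502, 3.34 and 4.81 CPM in the heterozygous and 22.6, 49.0 and 36.8 CPM in the LOH libraries. Like Cdk14, Ptprr was highest in the LOH library of line 23 and lowest among the LOH libraries in line 6. Of the 8 other genes compared Lgr5 came nearest, at a difference of 0.887 and place 420, followed by Axin2 at 1.20 and place 1480, and Znrf3 was the farthest at 1.95 and place 11024. Cdk14 was chosen for its higher LOH values, so genes with a large LOH rise come near it by construction. The places of Lgr5, Axin2 and Znrf3 follow their log2 fold changes of 1.59, 0.91 and -0.80. The measure is a description over 6 libraries that share their lines, and a link between these genes and Cdk14 was not tested.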

How the data were processed

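RNA was sequenced from 6 organoid libraries prepared by a strand-specific total RNA protocol, per the labels. FastQC 0.11.5, STAR 2.5.2b, RSEM 1.3.0, DESeq2 1.44.0 and GRCm38.p5 are named, with no role, in the submitters' processing notes; strand setting and filters are not given in the sources used here. The authors deposited expected counts (estimated reads per gene or transcript, with ambiguous reads shared), TPM values over 53379 genes, and the percent of a gene's TPM per transcript. The deposited normalized tables hold a signal: the truncated expected count divided by 1 size factor per library (in 100% of values, tolerance 1e-06), which served for symbols. The level order over protein-coding genes used the deposited TPM of those genes, rescaled to a common sum in each library. Effective lengths, another kind of value the authors deposited, did not enter it. The library and series tables agreed within 0.01. The annotation was GENCODE release 16, per the file names; coordinates came from release 21, which held 53274 of the identifiers.

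Expected counts were rounded and tested with edgeR 4.0.16 (quasi-likelihood, filterByExpr, TMM, Benjamini-Hochberg over 14537 genes, threshold 0.05, two-sided, no block). Alternatives were other scalings and filters, DESeq2 1.42.0, limma 3.58.1 on log2(TPM + 1) and log2(TPM + 0.1), the organoid line as block, and each library or line left out. Same-numbered libraries come from the same organoid line, which pairs them; their deviations from the group means correlated at -0.30, 0.01 and 0.29 in lines 6, 23 and 34 (over 14537 genes, not independent of each other). The fits were tested on simulated data. Promoters are RefSeq's. A further engineered allele that all the cultures share is not reported here. The members, the gene lists and the tests were chosen with earlier results of these data known. The genes named are the members, Trp53, each list's called genes and its most abundant gene, the tested TAIRE genes, the 5 tested neighbours on each side of Cdk14 and the 5 nearest in pattern. Cd68, Ptprc, Laptm5, the tested Wnt ligands other than Wnt7b and single genes of counts were named after their values were seen. The plotted and printed within-line ratios use log2 CPM with a prior count of 2. The SE of an edgeR log2 fold change is its absolute value over the square root of the quasi-likelihood F statistic. For Cdk14 the plotted SE comes from the contrast that chose the gene and is no test.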

Additional observations from a re-analysis of the deposited data

Results flagged for a closer look

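Of 24 genes compared within the 3 organoid lines, 13 had log2 ratios of LOH to heterozygous on both sides of 0, so that 1 line went against the others. Over all 14537 genes tested only 44.5% kept 1 direction in all lines, so such a split was common and is no trait of these genes. The differences between lines were not tested, since each line has 1 library of each kind. The span between the highest and the lowest line, on the log2 scale, was 0.33 for Lgr4, 0.62 for Rnf43, 1.79 for Sp5, 1.23 for Tcf7 and 0.38 for Ccny. Among the other Wnt genes it was 1.95 for Wnt7b, 1.14 for Wls, 1.03 for Ctnnb1 and 0.78 for Chd8. In the TAIRE list it was 0.76 for Cdk16, 1.60 for Cdk17, 1.11 for Cdk18 and 1.01 for Caprin2.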

How the results depend on the processing

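The log2 fold changes of Lgr5, Axin2, Rnf43, Znrf3 and Tcf7 kept their sign in all 18 alternatives run. That of Cdk14 did so too, but the rise in these same libraries chose the gene, so this is no support for it. Of the 8 genes tested beside Cdk14, the number called went from 0 to 2 in DESeq2, to 1 in each limma fit on TPM, and to between 0 and 2 when a library or a line was left out. The number of pathway genes called went from 4 to 13 in DESeq2, to 1 with the organoid line as a replicate block, and to 0 to 8 with a library or line left out. It was 7 without a filter and 2 with at least 10 counts in every library, where 3.62 and 5.26% of all genes were called. These filters also changed which pathway genes were tested. Over all genes the count went from 757 (516 higher) to 2290 in DESeq2, 1753 and 1911 in limma on log2(TPM + 0.1) and log2(TPM + 1), of which only 267 and 280 were higher, 213 with the block, and 0 to 2449 with a library or line left out. It was 2449 without the LOH library of line 6, 451 without that of line 23, 1422 without line 6, and 0 without line 23, line 34 or the heterozygous library of line 6, 23 or 34; the unadjusted p was then under 0.05 for 2253, 2097, 2966, 2637 and 2272 genes in edgeR, the only tool run on these subsets. The cause was not tested. Beside Fzd1, Ror2, Notum and Ephb2, the block ended no call among the named genes. In limma on log2(TPM + 0.1) and log2(TPM + 1) the median of all genes was -0.42 and -0.35, and these genes changed sign: Lgr4 (-0.25, -0.24), Sp5 (-0.46, -0.21), Ccny (-0.28, -0.27), Wnt7b (-0.54, -0.52), Wls (-0.53, -0.50), Lrp5 (-0.0051, -0.0047) and Chd8 (-0.13, -0.12). With the block Sp5 was at -0.10, Wnt7b at -0.14 and Wls at -0.081. With libraries or lines left out the log2 fold change ran from -0.0049 to 0.27 for Lgr4, -0.17 to 0.55 for Sp5, -0.039 to 0.18 for Ccny, -0.67 to 0.47 for Wnt7b, -0.40 to 0.30 for Wls, -0.23 to 0.24 for Ctnnb1, -0.062 to 0.36 for Chd8, -0.34 to 0.043 for Cdk16 and -1.19 to 0.30 for Caprin2. A line left out leaves 2 libraries a group, and an edgeR fit over all genes then sets the spread. Of 112 comparisons of transcript shares 1 moved by more than the spread over lines: by expected counts the share of Axin2-201 differed by 2.60 percentage points. Nkd1, Cdk15 and the R-spondin genes are limited by depth.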
